A study of Homo sapiens with 12 samples.

Results

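The keratins are the epithelial intermediate filament genes, and they were taken here as the protein-coding genes whose symbol is KRT followed by a number and at most 1 letter. This rule, which uses no measured value, found 55 of the 19951 protein-coding genes among the 58735 genes counted. RNA was sequenced from C4.2B, a castration-resistant human prostate cancer line descended from LNCaP, in 4 arms of 3 libraries each, seeded in separate plates. Cells received vehicle (DMSO), 0.25 μM ipatasertib, which inhibits AKT (AKTi), 1 μM tazemetostat, which inhibits EZH2 (EZH2i), or the 2 drugs together (combination). EZH2i and combination cells had 6 days of tazemetostat beforehand. At the start of the combined treatment every arm was switched to 10% charcoal-stripped FBS, which is low in androgens. All arms were collected 24 hours later. The study asked what the agents change in these cells before they die, and a single cell line limits it as a model.

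Keratin filaments are obligate pairs of a type I and a type II protein, so the members come as partners. KRT8 and KRT18 are the pair of simple epithelia and, with KRT19, mark the luminal cells of the prostate, while KRT5 and KRT14 mark its basal cells, and KRT6, KRT13 and KRT4 mark stressed or intermediate epithelium. Most other members belong to the epidermis, the hair follicle or the nail. EZH2 is the catalytic subunit of PRC2, which places the repressive H3K27me3 mark, and AKT is a kinase of growth and survival signalling.

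Libraries held 14133755 to 22276417 counts, and pairs within an arm differed by more than sampling noise, with a chi-square per gene of 2.53 to 7.50. The luminal label of the line held in these libraries. KLK3, which encodes prostate-specific antigen, averaged 1372 CPM in DMSO (CPM are counts per 1000000 TMM-scaled counts of a library), and TP63, the basal master regulator, had 1 count in the 12 libraries together. Markers of other cell types were low but not constant. The summed level of 5 fibroblast markers was 5.75 to 8.95 CPM in DMSO, 7.23 to 8.69 in AKTi, 17.2 to 18.7 in EZH2i and 10.8 to 15.6 in the combination, most of it COL1A1, and COL1A2 was at 0 in DMSO, AKTi and EZH2i. The summed level of 4 endothelial markers, mostly VWF, ran from 2.16 to 2.95 CPM in DMSO, 3.48 to 4.34 in AKTi, 5.73 to 6.50 in EZH2i and 5.07 to 7.38 in the combination, with KDR at 0 in DMSO, AKTi and EZH2i. The part of other cells in the results was not tested, and in bulk RNA fewer cells of a type and less RNA per cell cannot be told apart.

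The keratin repertoire of C4.2B was narrow. In DMSO 12 of the 55 keratins had any read, and 22 had none in any of the 12 libraries, which over 199124121 counts allows at most 0.0151 CPM each. Of the 55, 27 lie on chromosome 12 and 28 on chromosome 17, and by filament type 29 are type I and 26 type II. KRT18 is the type I gene that sits on chromosome 12, next to its type II partner. KRT8 and KRT18 together gave 87.6% to 89.5% of keratin reads in DMSO libraries, 91.5% to 92.1% in AKTi, 90.4% to 92.3% in EZH2i and 92.6% to 93.5% in the combination. The share was higher in every treated library than in every DMSO library, and in the combination it was above every AKTi and EZH2i library, which overlapped each other.

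**Figure D1:**
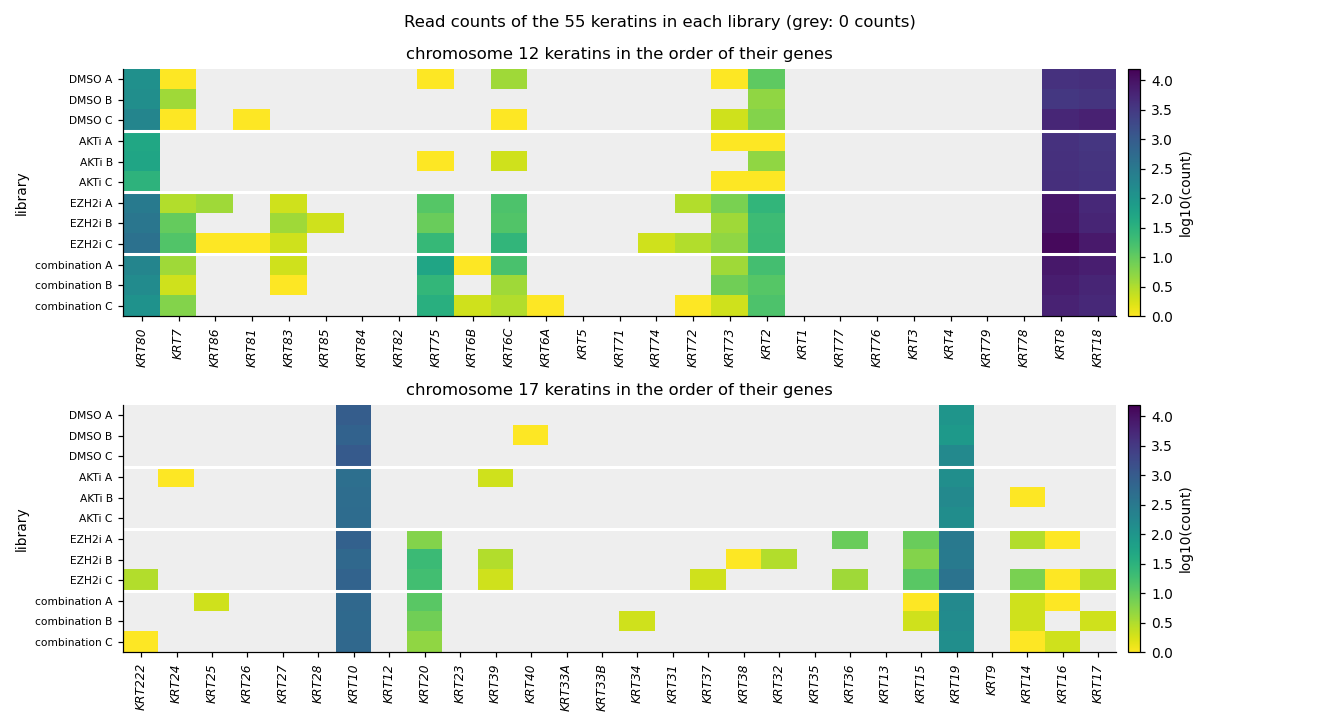
Read counts of the 55 keratins (columns, in the order of their genes on chromosome 12 above and chromosome 17 below) in each of the 12 libraries (rows, by arm), as log10 of the count, with 0 counts in grey. KRT8, KRT18, KRT19, KRT10 and KRT80 filled every library, and the scattered low counts lay mostly in the EZH2i and combination libraries.

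Keratins with a read numbered 12 in DMSO, 12 in AKTi, 27 under EZH2i and 22 in the combination. Detection widened over all genes too. Of the 56994 gene names that occur once, 22323 to 22826 had a read in a DMSO library and 22072 to 22453 in an AKTi library. In EZH2i libraries 23760 to 24770 had a read, and in combination libraries 24569 to 25141. The low-count filter passed 8 keratins, KRT8, KRT18, KRT19, KRT10, KRT80, KRT2, KRT6C and KRT75, and the other 47 reached at most 22 counts in a library. KRT8, KRT18, KRT19, KRT10 and KRT80 had at least 10 counts in every library. KRT2, KRT6C and KRT75 passed through the EZH2i and combination libraries, where they were high, so they had to differ, and their calls support nothing about the family. The 47 held 11 reads in DMSO (2 to 5 a library), 6 in AKTi (1 to 4), 183 in EZH2i (47 to 81) and 77 in the combination (21 to 29). Every EZH2i and combination library was therefore above every DMSO and AKTi library in these rare keratins, and EZH2i was above the combination.

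Of the 43 keratins without a read in DMSO, 3 (KRT83, KRT20 and KRT15) had a read in every EZH2i library, against 5% of the 4303 protein-coding genes without a read in DMSO. In the combination 2 (KRT20 and KRT14) did so, against 5.44%, and in AKTi 0 did so, against 0.813%. These shares, 6.98% and 4.65% of the 43, were near the background, so appearance from 0 was not particular to keratins.

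The sequence before the RefSeq start site is shown for 4 keratins that stand for the behaviours described below. KRT20 appeared from 0 under EZH2i, and KRT75 rose there from 1 read in DMSO. KRT10 fell in every treated arm, and KRT5 stayed at 0. Each run is the 250 bases upstream of the RefSeq start (GRCh38.p14), 5′ to 3′ on the gene's strand, and capitals mark each CG dinucleotide and each TATAAA. In the deposited annotation KRT5 starts further upstream, at 52520687, so its window lies within the counted gene. KRT75 starts there at 52434525, inside its window.
KRT75, chr12:52434372-52434621, minus strand: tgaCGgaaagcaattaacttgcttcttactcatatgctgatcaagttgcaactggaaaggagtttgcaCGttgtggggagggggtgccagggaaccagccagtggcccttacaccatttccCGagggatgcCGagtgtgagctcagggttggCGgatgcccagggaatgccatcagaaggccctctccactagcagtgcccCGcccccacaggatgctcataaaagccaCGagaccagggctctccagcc
KRT20, chr17:40885243-40885492, minus strand: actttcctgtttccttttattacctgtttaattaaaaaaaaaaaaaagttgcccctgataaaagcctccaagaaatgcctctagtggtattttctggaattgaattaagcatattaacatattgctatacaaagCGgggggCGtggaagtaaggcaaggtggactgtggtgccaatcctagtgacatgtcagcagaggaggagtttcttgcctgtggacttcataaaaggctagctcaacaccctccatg
KRT10, chr17:40822615-40822864, minus strand: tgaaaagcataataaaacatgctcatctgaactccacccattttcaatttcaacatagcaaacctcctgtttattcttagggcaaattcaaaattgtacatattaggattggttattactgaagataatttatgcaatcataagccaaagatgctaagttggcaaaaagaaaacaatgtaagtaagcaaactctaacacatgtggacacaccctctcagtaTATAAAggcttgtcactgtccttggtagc
KRT5, chr12:52520395-52520644, minus strand: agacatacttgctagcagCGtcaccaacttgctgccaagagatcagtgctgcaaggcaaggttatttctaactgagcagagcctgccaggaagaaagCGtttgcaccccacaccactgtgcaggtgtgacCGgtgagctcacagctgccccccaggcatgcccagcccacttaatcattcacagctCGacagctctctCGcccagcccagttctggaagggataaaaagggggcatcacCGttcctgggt
KRT75 held 7 CG dinucleotides, KRT20 2, KRT10 0 and KRT5 6. Over the 34 keratins with a RefSeq entry the median was 2, against 11 over 35116 promoters of this length. TATAAA, searched on both strands, was in 20 of the 34 and in 10.7% of all promoters, and among the 4 shown it was in KRT10 alone. GGGCGG, a GC-box core, was in 4 of the 34, against 42.6% of all promoters, and TGANTCA, the AP-1 core, was in 0, against 6.57%. These matches describe letters and not sites of binding.

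Of the 5 keratins with at least 10 counts in every library, EZH2i alone raised 4, KRT8, KRT18, KRT19 and KRT80, and lowered KRT10, by edgeR's quasi-likelihood test (adjusted p under 0.05 over 16646 genes), beside 32.6% of all tested genes higher and 31.5% lower. AKTi alone raised 2, KRT8 and KRT19, beside 20.6% of all genes, and lowered 3, KRT18, KRT10 and KRT80, beside 21.9%. The combination raised 2, KRT8 and KRT18, beside 38% of all genes, and lowered KRT10, beside 35.2%. These comparisons share the DMSO libraries. The median log2 fold change of the 5 was -0.18 in AKTi, 1.14 under EZH2i and 0.21 in the combination, and that of all genes was 0.01, 0.03 and 0.06. Of the 3 that passed through the arms with tazemetostat, all were called higher under EZH2i and KRT6C and KRT75 in the combination, which their selection favoured. With library size alone as the scale, every log2 fold change against DMSO would be about 0.06 higher in AKTi, 0.14 under EZH2i and 0.20 in the combination, and the values below are on the TMM scale.

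**Figure D2:**
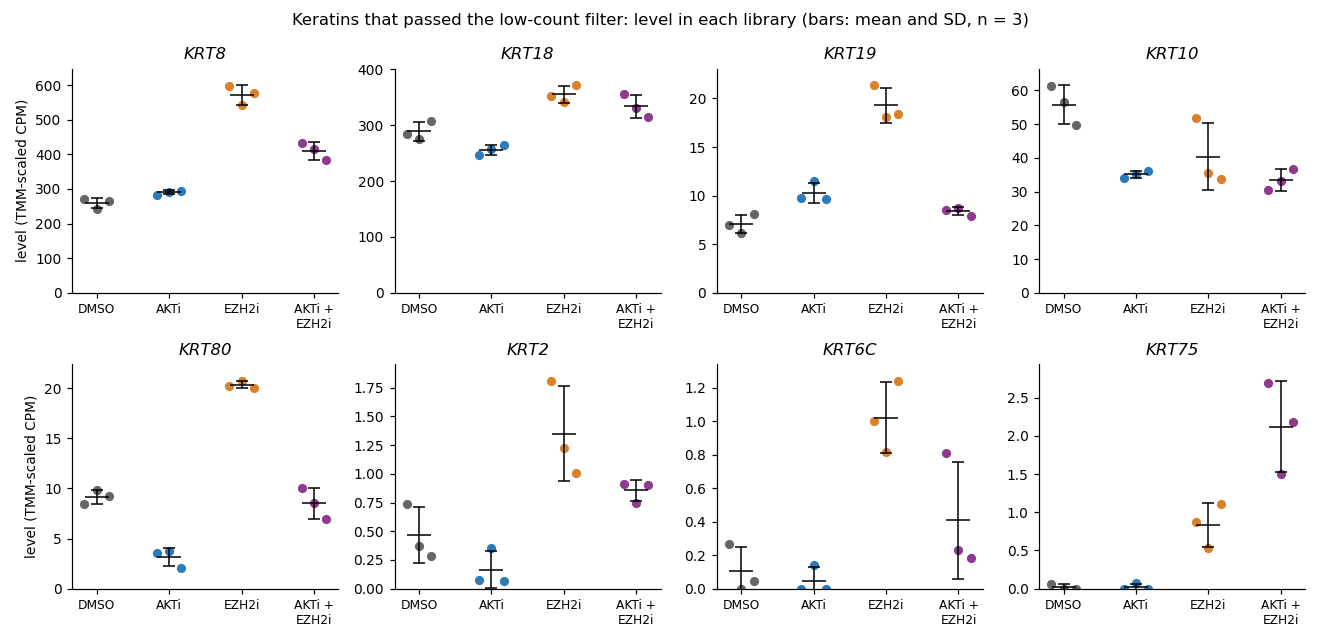
Level (TMM-scaled CPM, y axis from 0, a scale for each panel) of the 8 keratins that passed the low-count filter, in each library (points) of the 4 arms (x axis), with mean and SD (bars, n = 3). KRT8, KRT19 and KRT80 were highest under EZH2i and lower in the combination than in EZH2i, whereas KRT75 was highest in the combination.

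KRT8 (ENSG00000170421, hg38 chr12:52897187-52949954, minus strand), the type II keratin of simple epithelia, was 269.9, 242 and 265 CPM in the DMSO libraries and 284, 293 and 295 CPM in AKTi. It reached 597, 542 and 577 CPM under EZH2i and 433, 415 and 383 CPM in the combination. The 4 arms did not overlap, in the order DMSO, AKTi, combination, EZH2i. The SE of a log2 fold change, here and below, was derived from edgeR's test. It is the size of the change over the square root of the quasi-likelihood F statistic, from the fit of all 12 libraries. It is therefore approximate, above all for rare keratins. Against DMSO the log2 fold change of KRT8 was 1.14 ± 0.06 (SE, n = 3 libraries an arm) in EZH2i, or 2.21-fold (edgeR quasi-likelihood adjusted p = 2.05e-19). In the combination it was 0.66 ± 0.06 (adjusted p = 3.97e-13). In AKTi it was 0.16 ± 0.06 (adjusted p = 0.0173 by the same edgeR test), and this call was lost without DMSO replicate B (log2 0.09), AKTi replicate B (log2 0.14) or AKTi replicate C (log2 0.15).

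KRT18 (ENSG00000111057, chr12:52948871-52952901, plus strand), the type I partner of KRT8, moved less. It was 284, 275 and 308 CPM in DMSO, 246, 258 and 264 CPM in AKTi, 352, 342 and 372 CPM in EZH2i, and 355, 331 and 315 CPM in the combination. EZH2i and combination libraries overlapped and lay above DMSO, and AKTi lay below it. The log2 fold change against DMSO was 0.30 ± 0.06 in EZH2i (edgeR adjusted p = 1.88e-05), 0.21 ± 0.06 in the combination (adjusted p = 0.00129) and -0.18 ± 0.06 in AKTi (adjusted p = 0.0111). The AKTi call was lost without DMSO replicate C (log2 -0.13) and when libraries were scaled by size alone (log2 -0.12, adjusted p = 0.0869) or upper quartile (log2 -0.12, adjusted p = 0.0768), and that of the combination without DMSO replicate B (log2 0.14, adjusted p = 0.0519).

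The ratio of KRT8 to KRT18 counts is taken within a library and does not depend on scaling. It was 0.949, 0.881 and 0.862 in the DMSO libraries and 1.15, 1.13 and 1.12 in AKTi. It was 1.70, 1.59 and 1.55 in EZH2i and 1.22, 1.25 and 1.22 in the combination. The arms did not overlap, and reads of the pair went from mostly KRT18 in DMSO to mostly KRT8 under each treatment. Per kilobase of the deposited gene lengths (6881 and 3218 bases over all isoforms) KRT18 stayed the higher in each arm, with a mean KRT8 to KRT18 ratio of 0.420 in DMSO and 0.754 in EZH2i. With canonical transcript lengths (1784 and 1413 bases), an alternative chosen after the data were seen, the means were 0.711 and 1.28. The 2 genes overlap by 1084 bases on opposite strands, and the strand setting of the counting is not given in the sources used here. The 50 KRT8 pseudogenes held 2.28% to 7.55% of the KRT8 count, led by KRT8P12, and adding the pseudogene counts of both genes left the arms apart, at 0.909 to 1.00 in DMSO, 1.18 to 1.21 in AKTi, 1.58 to 1.73 in EZH2i and 1.26 to 1.30 in the combination.

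**Figure D3:**
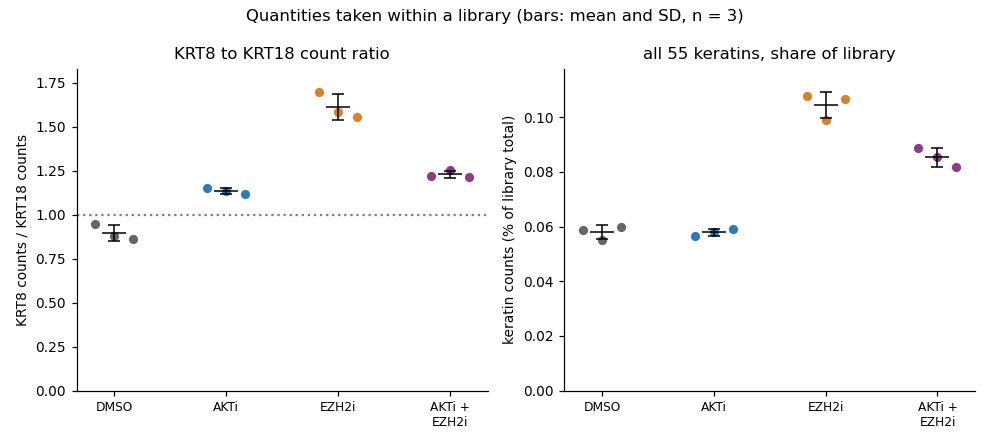
Left, KRT8 counts divided by KRT18 counts in each library (points) by arm, with a dotted line at equal counts. Right, the reads of all 55 keratins as a percentage of the library total, with mean and SD as bars (n = 3). DMSO ratios were below the line at 0.862 to 0.949 and EZH2i ratios highest at 1.55 to 1.70, and the keratin share rose from 0.0550% to 0.0600% in DMSO to 0.0990% to 0.108% in EZH2i.

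KRT19 (ENSG00000171345, chr17:41523617-41528308), a type I luminal keratin, was 6.93, 6.20 and 8.06 CPM in DMSO and 9.77, 11.5 and 9.66 CPM in AKTi. It was 21.4, 18.1 and 18.4 CPM in EZH2i and 8.52, 8.76 and 7.91 CPM in the combination. AKTi and EZH2i each lay above every DMSO library, but the combination fell back to overlap DMSO. The log2 fold change was 1.43 ± 0.13 in EZH2i (2.70-fold, edgeR adjusted p = 5.64e-12) and 0.53 ± 0.14 in AKTi (adjusted p = 0.00214). In the combination it was 0.24 ± 0.14 (edgeR adjusted p = 0.126), which passed the threshold when scaled by library size (log2 0.43, adjusted p = 0.00589) or upper quartile (log2 0.42, adjusted p = 0.00714), with the filter of 10 counts in every library (log2 0.30, adjusted p = 0.0498) and without DMSO replicate C (log2 0.35, adjusted p = 0.0476).

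The other luminal keratins were rare. KRT20, a keratin of intestinal and urothelial umbrella cells, had 0 counts in the DMSO and AKTi libraries, 6, 22 and 19 under EZH2i and 12, 8 and 5 in the combination. Pooled over an arm it was at least 14.3-fold higher in EZH2i than in DMSO and at least 7.66-fold higher in the combination, with DMSO set to the 3 counts that a 0 allows over the arm. KRT7 had 1, 4 and 1 counts in DMSO, 0 in AKTi, 3, 10 and 14 under EZH2i and 4, 2 and 6 in the combination, so that DMSO overlapped the EZH2i and combination arms. Its pooled EZH2i to DMSO ratio was 4.12 (exact 95% counting interval 1.67 to 12.2), an interval that covers counting error only. In an edgeR fit of every gene with a count, KRT20 was higher in EZH2i (adjusted p = 5.90e-07) and in the combination (adjusted p = 6.21e-05), and KRT7 had adjusted p = 0.147 and 0.608.

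Summed over the 5 luminal keratins, the level was 524 to 582 CPM in DMSO, 540 to 569 in AKTi, 903 to 971 under EZH2i and 707 to 798 in the combination. EZH2i lay above the combination and both above DMSO and AKTi, which overlapped. Luminal keratins made up 88.7% to 90.7% of keratin reads in DMSO and 92.5% to 94.6% in the treated libraries.

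Basal keratins stayed near the detection limit in all arms. KRT5, the type II basal keratin, had 0 counts in every library, which allows at most 0.0151 CPM over all libraries. KRT15, a type I basal keratin, had 0 in DMSO and AKTi, 9, 6 and 12 under EZH2i and 1, 2 and 0 in the combination, and was at least 8.24-fold higher in EZH2i than in DMSO (adjusted p = 0.00133 in the edgeR fit of every gene with a count). KRT14, the type I partner of KRT5, had 0 in DMSO, 0, 1 and 0 in AKTi, 3, 0 and 7 under EZH2i and 2, 2 and 1 in the combination. KRT17, a basal and stress keratin, had 3 counts in 1 EZH2i library and 2 in 1 combination library. The 4 basal keratins together thus held 0 reads in DMSO, 1 in AKTi, 40 under EZH2i and 10 in the combination, against 27566, 23676, 51040 and 40539 luminal keratin reads. As a share of keratin reads the basal class was 0.0734% under EZH2i and 0.0233% with both agents. Basal markers other than keratins, 15 genes, summed to 334 to 357 CPM in DMSO, 371 to 387 in AKTi, 345 to 364 under EZH2i and 408 to 420 in the combination. Of the 10 tested, 4 were higher and 1 lower in EZH2i, beside 32.6% and 31.5% of all genes. In the combination 6 were higher and 1 lower, beside 38% and 35.2%. The median log2 fold changes were 1.05 and 0.63. Single genes moved more than the sum. LAMB3 averaged 0.290 CPM in DMSO, 5.62 under EZH2i and 2.89 in the combination (edgeR adjusted p = 5.76e-13 and 8.50e-10 against DMSO). The 1 lower in the combination was CDH3, by -0.32 ± 0.12 (edgeR adjusted p = 0.0210), a call lost by library-size or upper-quartile scaling.

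Among stress and intermediate keratins, KRT6C (ENSG00000170465, chr12:52468516-52473785) was the one that passed the filter. It had 4, 0 and 1 counts in DMSO, 0, 2 and 0 in AKTi, 15, 14 and 27 under EZH2i and 16, 4 and 3 in the combination. EZH2i lay above every DMSO and AKTi library in CPM, while the combination overlapped DMSO (0.181 CPM at its lowest, against 0.269 CPM at the DMSO highest). The log2 fold change was 3.24 ± 0.76 in EZH2i (edgeR adjusted p = 0.000333) and 1.96 ± 0.85 in the combination (adjusted p = 0.0376). The call in the combination rested on its replicate A, and was lost without it (log2 0.96, adjusted p = 0.408), without DMSO replicate B (log2 1.47, adjusted p = 0.135) or C (log2 1.54, adjusted p = 0.150), and with every gene that had a count in the fit (log2 1.92, adjusted p = 0.0549). KRT6A had 1 count in the 12 libraries, and KRT4 and KRT13, of hillock and club-like epithelium, had 0 in each. KRT6A, KRT6B and KRT6C are near-identical, and KRT14, KRT16 and KRT17 are related in sequence. Reads of such genes may have been split or dropped in counting, so which copy gave them is uncertain.

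Of the 13 suprabasal and other epithelial keratins, 9 were at 0 in every library. KRT10 (ENSG00000186395, chr17:40818117-40822595), the type I keratin of suprabasal epidermis, was 61.2, 56.5 and 49.7 CPM in DMSO, 34.0, 35.3 and 36.0 CPM in AKTi, 51.8, 35.6 and 33.8 CPM in EZH2i and 30.5, 33.0 and 36.8 CPM in the combination. It was the keratin that fell in each treated arm, and DMSO overlapped with EZH2i through EZH2i replicate A. The log2 fold change was -0.66 ± 0.11 in AKTi (edgeR adjusted p = 2.73e-06), -0.47 ± 0.10 in EZH2i (adjusted p = 0.000132) and -0.74 ± 0.10 in the combination (adjusted p = 8.32e-08). KRT10 overlaps TMEM99 on the other strand by 3490 bases, and TMEM99 had 503 to 910 counts a library. KRT1, its type II partner in the epidermis, named here after its counts were seen, had 0 counts in every library.

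KRT80 (ENSG00000167767, chr12:52168996-52192000), a type II keratin found in many epithelia, responded in opposite directions to the agents. It was 8.41, 9.81 and 9.25 CPM in DMSO, 3.54, 3.71 and 2.09 CPM in AKTi, 20.2, 20.7 and 20.0 CPM in EZH2i and 10.04, 8.53 and 6.95 CPM in the combination. AKTi lay below and EZH2i above every DMSO library, and the combination spanned the DMSO range. The log2 fold change was -1.56 ± 0.18 in AKTi (edgeR adjusted p = 4.96e-09), 1.15 ± 0.14 in EZH2i (adjusted p = 6.09e-09) and -0.10 ± 0.15 in the combination (adjusted p = 0.560). That last value changed sign with the scaling, at 0.09 by library size and 0.08 by upper quartile.

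KRT2 (ENSG00000172867, chr12:52644558-52652164), a type II keratin of late epidermal differentiation, had 11, 5 and 6 counts in DMSO, 1, 5 and 1 in AKTi, 27, 21 and 22 under EZH2i and 18, 13 and 15 in the combination. In CPM both arms with tazemetostat lay above every DMSO library, and AKTi overlapped DMSO. The log2 fold change was 1.54 ± 0.50 in EZH2i (edgeR adjusted p = 0.00730), lost without DMSO replicate C (log2 1.24, adjusted p = 0.0540). It was 0.90 ± 0.52 in the combination (edgeR adjusted p = 0.115, and 0.0434 without DMSO replicate A). In AKTi it was -1.42 ± 0.70 (edgeR adjusted p = 0.104, and 0.0263 without AKTi replicate B).

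**Figure D4:**
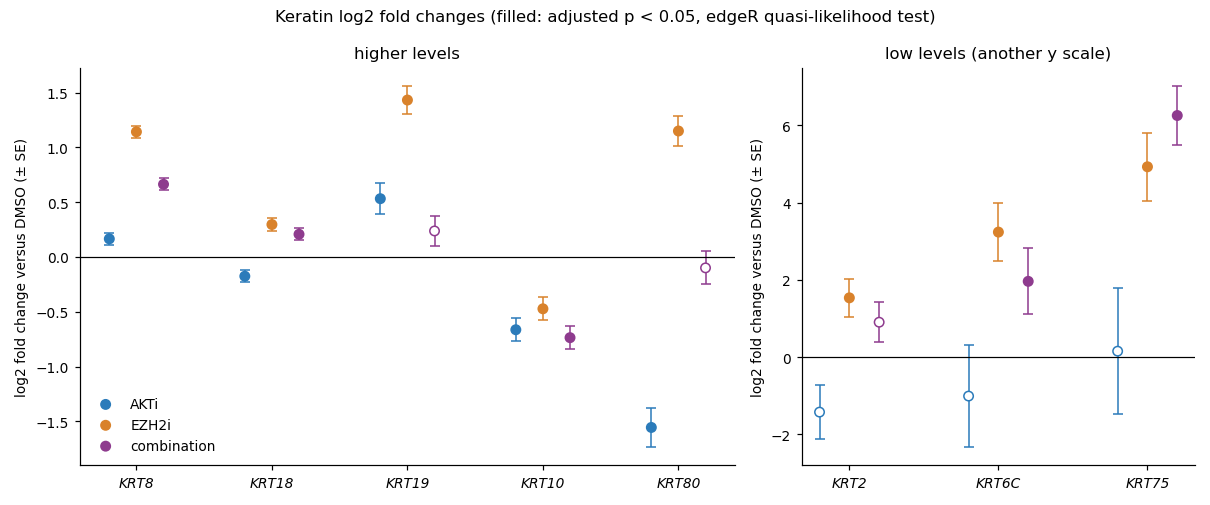
Log2 fold change against DMSO (y axis, ± SE, another scale in each panel) of the 8 tested keratins under AKTi, EZH2i and the combination (colours). Filled points passed an adjusted p under 0.05 by edgeR's quasi-likelihood test, and KRT80 shows AKTi at -1.56 and EZH2i at 1.15 with the combination at -0.10.

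KRT75 (ENSG00000170454, chr12:52424070-52434525), a type II keratin of the companion layer of the hair follicle, had 1, 0 and 0 counts in DMSO, 0, 1 and 0 in AKTi, 13, 9 and 24 under EZH2i and 53, 26 and 36 in the combination. The combination libraries, at 1.5 to 2.69 CPM, lay above the EZH2i libraries, at 0.526 to 1.10 CPM, and these above all others. Pooled over an arm, the ratio to DMSO was 42.1 (exact 95% counting interval 7.19 to 1699) in EZH2i and 106 (18.6 to 4209) in the combination, each resting on 1 DMSO count. Both were called by edgeR (adjusted p = 6.79e-06 and 4.59e-09). Of the 8 tested keratins, KRT75 was the 1 called higher in the combination than in EZH2i, with a log2 fold change of 1.33 ± 0.43 (edgeR adjusted p = 0.0103), a call lost without EZH2i replicate B (log2 1.09, adjusted p = 0.0602) or combination replicate A (log2 1.12, adjusted p = 0.0706). Other hair keratins, named here after their values were seen, had few reads: KRT73 had 3, 2, 16 and 14 in DMSO, AKTi, EZH2i and the combination, KRT83 had 0, 0, 8 and 3, and KRT36 had 13 in EZH2i, from 2 libraries, and 0 elsewhere. KRT73 and KRT75 were listed with the 9 hair follicle inner root sheath keratins, which held 4, 3, 70 and 132 reads in the same order. KRT75 alone gave 46 of these in EZH2i and 115 in the combination. The 17 hair and nail keratins, a separate class that holds KRT83 and KRT36, together had 2, 2, 40 and 5 reads.

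Setting the combination against each single agent asked what the second agent added. Relative to AKTi, the combination raised KRT8, KRT18 and KRT80, 3 of the 5 abundant in every library, beside 32.1% of all genes, and KRT2, KRT6C and KRT75, which passed the filter through the arms with tazemetostat. It lowered 0 of the 8 at the threshold of edgeR's test, beside 32.1% of all genes. At an unadjusted p under 0.05 it lowered 1, and by DESeq2 0. KRT80 rose by 1.46 ± 0.18 on the log2 scale (edgeR adjusted p = 5.81e-09) and KRT8 by 0.50 ± 0.06 (adjusted p = 8.38e-10), with no overlap of the arms in either. KRT2 rose by 2.33 ± 0.64 (adjusted p = 0.00171) and KRT6C by 2.97 ± 1.02 (adjusted p = 0.0113), the latter lost without combination replicate A (log2 1.97, adjusted p = 0.159), AKTi replicate A (log2 2.45, adjusted p = 0.0515) or AKTi replicate C (log2 2.45, adjusted p = 0.0537).

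Relative to EZH2i, the combination lowered 4 of the 8, KRT8, KRT19, KRT80 and KRT10, beside 25.7% of all genes, and raised 1, KRT75, beside 21.1%. KRT80 was lower by a log2 of -1.25 ± 0.14 (edgeR adjusted p = 2.08e-09), KRT19 by -1.19 ± 0.13 (adjusted p = 6.03e-10) and KRT8 by -0.48 ± 0.06 (adjusted p = 3.60e-09), without overlap of the arms. KRT18 did not pass, at -0.09 ± 0.06 (adjusted p = 0.196). For KRT10 the value of -0.26 ± 0.11 (adjusted p = 0.0395) was lost with DESeq2 (log2 -0.27, adjusted p = 0.163), by library size, by upper quartile, with 10 counts required in every library, and with only the 2 arms fitted. It was also lost without EZH2i replicate A (log2 -0.05, adjusted p = 0.675), the library with the highest KRT10 of its arm, and without DMSO replicate B, AKTi replicate A or B, or combination replicate A or B (log2 -0.20 to -0.26).

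The interaction, the combination minus what the single agents add up to on the log2 scale, differed from 0 for 3 of the 8. It was below 0 for KRT8 and KRT19, beside 17.5% of all genes, and above 0 for KRT10, beside 10.7%. For KRT19 the single agents summed to 1.96 and the combination reached 0.24, an interaction of -1.73 ± 0.19 (edgeR adjusted p = 5.38e-09). For KRT8 the sum was 1.31, the combination 0.66 and the interaction -0.64 ± 0.08 (adjusted p = 5.37e-08). KRT10 fell by less than the sum, with an interaction of 0.40 ± 0.15 (adjusted p = 0.0418), lost with DESeq2 (adjusted p = 0.173) and without DMSO replicate A, AKTi replicate A or C, EZH2i replicate B or C, or combination replicate B or C (log2 0.27 to 0.42). KRT80 was near additive, with a sum of -0.41 and a combination of -0.10, and its interaction of 0.31 ± 0.23 did not pass (adjusted p = 0.350).

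**Figure D5:**
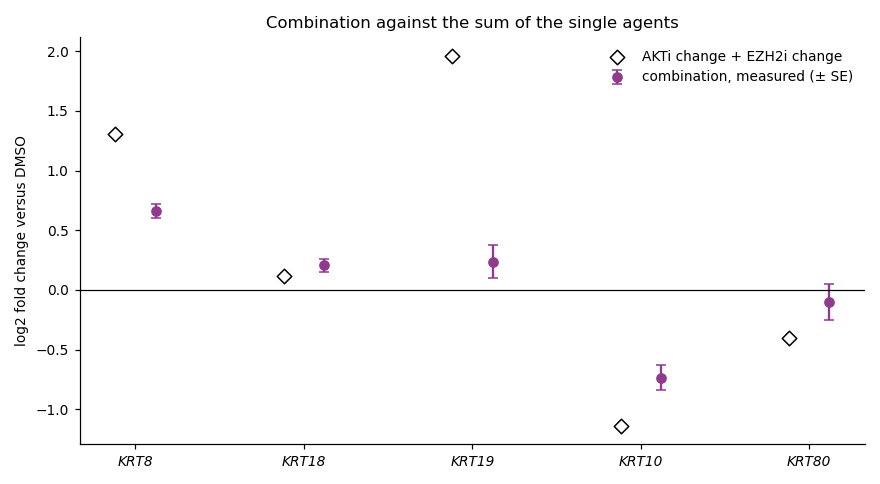
Log2 fold change against DMSO of the 5 more abundant keratins: open diamonds give the sum of the AKTi and EZH2i changes, filled points the change measured in the combination (± SE). KRT8 and KRT19 lay below the sum (0.66 against 1.31 and 0.24 against 1.96), and KRT10 was less reduced than the sum (-0.74 against -1.14).

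Keratin filaments attach to desmosomes, and of 17 desmosomal genes 13 were tested. In AKTi 9 were higher and 1 lower (69.2% and 7.69%, beside 20.6% and 21.9% of all genes), and under EZH2i 8 were higher and 2 lower (61.5% and 15.4%, beside 32.6% and 31.5%). In the combination 7 were higher and 4 lower, with shares of 53.8% and 30.8% beside 38% and 35.2% of all genes, and both kinds of call were present. The median log2 fold changes were 0.30, 0.44 and 0.18, against 0.01, 0.03 and 0.06 over all genes. DSP, desmoplakin, which ties keratins to the desmosome, averaged 197 ± 17.3 CPM (SD, n = 3) in DMSO, 301 ± 20.6 in AKTi, 633 ± 18.5 under EZH2i and 969 ± 36.1 in the combination, a log2 fold change of 2.30 ± 0.06 in the combination (edgeR adjusted p = 4.39e-28). DSP thus rose furthest in the combination, unlike KRT8 and KRT19, and its interaction was 0.01 ± 0.08 (adjusted p = 0.971). JUP, plakoglobin, had log2 fold changes of 0.45, 0.82 and 0.66 in AKTi, EZH2i and the combination, PPL, periplakin, of 0.80, 1.39 and 1.44, and PKP2, plakophilin 2, was higher by 1.81 ± 0.12 in the combination. In the combination PKP3 was lower by -0.78 ± 0.07, PKP4 by -0.96 ± 0.06 and DSG2 by -0.33 ± 0.05, all called by edgeR's test.

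Of 7 hemidesmosome and cytolinker genes, all tested, 5 were higher and 1 lower in AKTi (beside 20.6% and 21.9% of all genes), 6 higher and 0 lower under EZH2i (beside 32.6% and 31.5%) and 6 higher and 0 lower in the combination (beside 38% and 35.2%). The 1 lower in AKTi was DST, dystonin, at -0.67 ± 0.12 (edgeR adjusted p = 1.97e-05), which was higher in the combination by 0.60 ± 0.11. PLEC, plectin, the linker of keratins to the hemidesmosome, rose by 0.51 ± 0.07, 0.53 ± 0.07 and 0.75 ± 0.07 on the log2 scale in AKTi, EZH2i and the combination (edgeR adjusted p = 1.62e-07, 2.71e-08 and 4.90e-12). ITGB4, the integrin β4 that anchors basal cells, went from 3.29 CPM in DMSO to 6.91, 16.4 and 17.9 CPM, and MACF1 and ITGA6 were higher by 1.20 and 0.93 in the combination.

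Among other intermediate filament genes, 17 listed and 10 tested, 6 were higher and 3 lower in the combination, beside 38% and 35.2% of all genes, so the lower share was near that of all genes. VIM, vimentin, the mesenchymal filament, was 8.30 ± 1.03 CPM (SD, n = 3) in DMSO, 12.5 ± 1.51 in AKTi, 32.6 ± 1.37 under EZH2i and 47.2 ± 1.63 in the combination, all 4 arms apart from each other. Its log2 fold change was 2.49 ± 0.10 in the combination (edgeR adjusted p = 3.32e-22), against 0.66 for KRT8, and VIM remained at a lower CPM than KRT8 in each arm. The 3 lower were the B-type nuclear lamins LMNB1 (-2.81 ± 0.06) and LMNB2 (-2.13 ± 0.07), and NES, nestin (-0.94 ± 0.24). Keratin-binding and filament regulators, 16 listed and 16 tested, were higher for 5 and lower for 9 in the combination (31.2% and 56.2%, beside 38% and 35.2% of all genes), the lower ones including HSPB1, the small heat shock protein that binds filaments (-1.07 ± 0.07), PRMT1 (-1.76 ± 0.06) and the ubiquitin ligase STUB1 (-1.22 ± 0.08).

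Of 18 epithelial transcription factors and splicing regulators, 17 were tested, and 11 were higher and 1 lower in the combination (64.7% and 5.88%, beside 38% and 35.2% of all genes). In AKTi 3 were higher and 3 lower (17.6% each, beside 20.6% and 21.9%), and in EZH2i 7 and 5 (41.2% and 29.4%, beside 32.6% and 31.5%), shares near those of all genes. SOX9, a regulator of epithelial progenitors, averaged 9.80 CPM in DMSO, 16.6 in AKTi, 49.4 under EZH2i and 93.3 in the combination. ELF3, an epithelial ETS factor, rose by 2.28 ± 0.11 in EZH2i and 2.04 ± 0.11 in the combination (edgeR adjusted p = 2.98e-20 and 2.77e-19), and KLF4 by 1.27 ± 0.13 and 2.27 ± 0.13 (9.67e-11 and 1.73e-18). The 11 luminal markers other than keratins summed to 3626 to 3706 CPM in DMSO, 5842 to 6010 in AKTi and 6340 to 6689 under EZH2i. In the combination they summed to 9220 to 9334 CPM. All 11 were tested, and 10 were higher and 1 lower in AKTi (beside 20.6% and 21.9% of all genes). Under EZH2i 8 were higher and 1 lower (beside 32.6% and 31.5%). In the combination 9 were higher and 2 lower (beside 38% and 35.2%). KLK3, which encodes prostate-specific antigen, was among the higher in the combination, by 1.52 ± 0.05. ACPP and CD24 were higher there by 5.65 ± 0.08 and 4.22 ± 0.15. TMPRSS2 averaged 54.1 CPM in DMSO and 668 CPM in the combination. The 2 lower in the combination were HOXB13, by -0.53 ± 0.06, and EPCAM, by -0.29 ± 0.06. The EPCAM call was lost when libraries were scaled by size alone or upper quartile. KRT8 and KRT19 had their highest means in EZH2i, and KLK3 in the combination. The luminal markers did not all go with KLK3, since HOXB13 averaged 457 CPM in EZH2i and 294 CPM in the combination.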

How the data were processed

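The authors aligned polyA RNA-seq reads to hg38 with STAR and counted them per gene with HTSeq, and the submitters' processing notes name DESeq2 too. Versions, annotation and strand setting are not given in the sources used here. The authors deposited whole-number counts for 58735 genes with a column of gene lengths, and signal values, their DESeq2-normalized counts, which were found to be each count over a library's size factor for the 56994 names that occur once. The labels name no batch. Counts were tested with edgeR 4.0.16 in R 4.3.3 (filterByExpr, minimum count 10 and minimum total 15, TMM, 16646 genes, quasi-likelihood test, 1 mean per arm over 12 libraries, Benjamini-Hochberg over all genes, threshold 0.05). CPM are counts per 1000000 TMM-scaled counts. With 3 libraries an arm, p-values measure the spread between plates, which may be technical. On simulated counts, 144 of the 184 genes that were given a 2-fold change and passed the filter were recovered (combination against DMSO). Of 15099 genes tested there, 11 were called falsely. Far fewer genes were changed in the simulation than were called in these data, so it does not measure false calls or scaling here. Totals of 14133755 to 22276417 counts a library set the floor, 3 counts for a 0. Intervals are exact and cover counting error only.

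Every keratin that passed the filter is named, then KRT5, KRT14, KRT15, KRT17, KRT7, KRT20, KRT6A, KRT13 and KRT4, and of other lists the 3 highest and 3 lowest called genes in the combination with a mean of at least 1 log2 CPM, plus the fixed genes TP63, KLK3, VIM, PLEC, DSP and JUP (2 others are not reported here). Examples are printed. The members and lists were chosen with earlier results of these data known, and no list is tested as a set. Keratins with at least 10 counts in every library were counted apart from the others, a split made after the data were seen. Lists not described in the results are given for the combination, where 38% of all tested genes were higher and 35.2% lower. They were club and hillock markers (1 tested, 1 higher), neuroendocrine markers (1 tested, adjusted p not under the threshold) and leukocyte markers (1 tested, likewise). Of keratinocyte envelope genes (3 tested) 2 were higher, CNFN and TGM3. The TGM3 call was lost without DMSO replicate C, and that of CNFN without DMSO replicate A or B or combination replicate A or C.

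Alternatives were DESeq2 1.42.0, RLE, library-size or upper-quartile scaling, 2 other count filters, only the arms compared, a replicate block, each library left out, the authors' normalized values, values per kilobase, pseudogene counts added and, chosen after seeing the data, canonical transcript lengths. Promoters came from a RefSeq table (GRCh38.p14), which held 34 of the 55 members. Other assays and cell lines of the study were not analysed here.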

Additional observations from a re-analysis of the deposited data

Results flagged for a closer look

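The effect of AKTi in cells with and without tazemetostat differed for 3 keratins, by the interaction term of edgeR's quasi-likelihood test with Benjamini-Hochberg adjustment. The interaction was -0.643 for KRT8 (adjusted p = 5.37e-08) and -1.73 for KRT19 (5.38e-09) on the log2 scale, and both calls held in every alternative run. It was 0.401 for KRT10 (0.0418), which did not pass by DESeq2. AKTi raised KRT19 by 0.53 in cells without tazemetostat, and with it the combination was -1.19 against EZH2i. For KRT8 the same values were 0.16 and -0.48, and for KRT10 -0.66 and -0.26.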

How the results depend on the processing

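Of the counts of keratins called, most stayed within 1.5 times their value under each alternative. The replicate letters did not pair the libraries (correlations of same-letter deviations -0.0583 to 0.0688 over 18 pairs), and the replicate block gave 7 keratins higher in EZH2i, as without it, and 5 lower in the combination against EZH2i, with KRT6C added (-1.46, edgeR adjusted p = 0.0492, and -2.28, 0.0129, without combination replicate A). With the filter of 10 counts in every library, which leaves out the rare keratins, 4 were higher in EZH2i, 3 in the combination against AKTi and 0 in the combination against EZH2i. DESeq2 called 0 interactions higher. Leaving out 1 library gave 1 to 2 keratins higher in AKTi, 2 to 5 higher in the combination against DMSO, 0 to 1 lower in the combination against AKTi, 0 to 1 higher against EZH2i and 0 to 1 interactions higher. Signs turned for values that did not pass the threshold. For KRT10 in the combination against AKTi, the value was 0.0662 by library size and 0.0543 by upper quartile. For KRT80 in the combination against DMSO it was 0.0947 by library size, 0.0836 by upper quartile and -0.241 to 0.0231 with 1 library left out (0.0231 without combination replicate C). With 1 library left out, KRT6C ranged from -3.91 to 0.588 in AKTi and from -1.86 to 2.64 in the interaction, and KRT75 from -1.92 to 2.06 in AKTi and from -0.727 to 3.26 in the interaction. The summed luminal level relative to DMSO (log2 0.01 in AKTi, 0.77 in EZH2i, 0.44 in the combination) became 0.0647, 0.915 and 0.635 by library size, and per kilobase -0.0477 in AKTi and 0.632 in EZH2i. With pseudogene counts added, the log2 KRT8 to KRT18 ratio was -0.0765 in DMSO, 0.256 in AKTi and 0.352 in the combination, and per kilobase of canonical transcript it was 0.352 in EZH2i. Causes were not tested. Depth limits the 47 keratins outside the filter, whose highest DMSO or AKTi count was 4.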
